A study of Mus musculus with 14 samples.

Results

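The genes described here are 10 annexins, Anxa1 to Anxa8, Anxa11 and Anxa13, out of 19938 genes that could be read on the arrays. They were chosen by symbol, and the rule uses no measured value, although earlier results of these data were known when the family was picked. Each has a row that the platform's annotation gives to that symbol alone, and the brightest row per gene was used. All 10 were found. Anxa6 had 2 rows, of which the brighter (transcript cluster 10385966) was used, and each of the others had a single row. The set was defined as annexins other than Anxa10. Anxa9, which also has a single row, was not among the listed symbols, and the reason is not given. Both are read after the partner genes. No filter on low values was applied, so all 10 entered every test.

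Annexins are cytosolic proteins that bind acidic phospholipids of membranes when calcium rises, through a core of repeated helical domains. Their differing N-terminal tails recruit partners such as S100 proteins, and through these the family takes part in vesicle traffic, membrane repair, cortical actin and, outside the cell, in the handling of plasminogen and inflammation. In the gut, Anxa2, Anxa4 and Anxa13 are known from the surface of epithelial cells, and Anxa1 and Anxa3 from injured or inflamed epithelium and from granulocytes.

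The data are 14 Affymetrix Mouse Gene 1.0 ST arrays of total RNA from the proximal duodenum of 9 age-matched mice, on a background of 129S7/SvEv and C57/BL6. The wildtype group held normal duodenum of 3 mice with intact Lrig1. The tumor group held duodenal tumors (adenomas) of 6 mice of genotype Lrig1-CreERT2/CreERT2, which the labels equate with Lrig1-/-, and the adjacent group held normal duodenum of 5 of those 6 mice. Tumor and adjacent tissue are therefore both Lrig1-null, and the wildtype mice alone are labelled as having Lrig1, a transmembrane protein that restrains ErbB receptors. The sources used here state neither ages nor sexes. Values are log2 signal, so a difference of 1 is a 2-fold difference. Differences between groups were tested with limma over all genes with the mouse as a block, and a gene was called at a Benjamini-Hochberg adjusted p below 0.05.

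Some arrays stood apart before any annexin was read. Wildtype replicate 1 carried gastric surface cell genes (5 of 5 markers in the table) at a list mean of 13.40, whereas the other wildtype arrays were at 6.86 and 7.07 and the tumors spanned 12.08 to 13.88. Wildtype replicates 1 and 3 and adjacent replicates 1 and 2 carried pancreatic acinar genes (9 of 11 in the table) at list means of 13.16 to 14.16, against 7.22 to 7.44 in the other 4 non-tumor arrays and 7.13 to 9.78 in tumors. Lrig1 itself was at 9.54, 9.34 and 8.22 in wildtype, 6.95 to 7.40 in adjacent tissue and 7.65 to 8.54 in tumors. The tumors labelled Lrig1-null thus overlapped wildtype, with tumor replicate 3 (8.54) above wildtype replicate 3 (8.22), and Lrig1 was called higher in tumors than in adjacent tissue (0.88 ± 0.17, limma adjusted p = 0.00102), both labelled null. Against wildtype, Lrig1 was called lower in tumors (-0.96 ± 0.24, limma adjusted p = 0.0162). In adjacent tissue it lay below wildtype without overlap (-1.84 ± 0.25), narrowly short of a call (limma adjusted p = 0.0511). Where the probes lie relative to the inserted Cre was not determined, so genotypes here are as labelled. Enterocyte genes (6 of 6 in the table) had list means of 11.59 to 13.51 in the non-tumor arrays, lowest in wildtype replicate 1, and 10.11 to 10.43 in tumors. Smooth muscle genes were also present in the non-tumor arrays (6 of 6, 9.93 to 11.75) although the labels call the tissue epithelium.

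**Figure D1:**
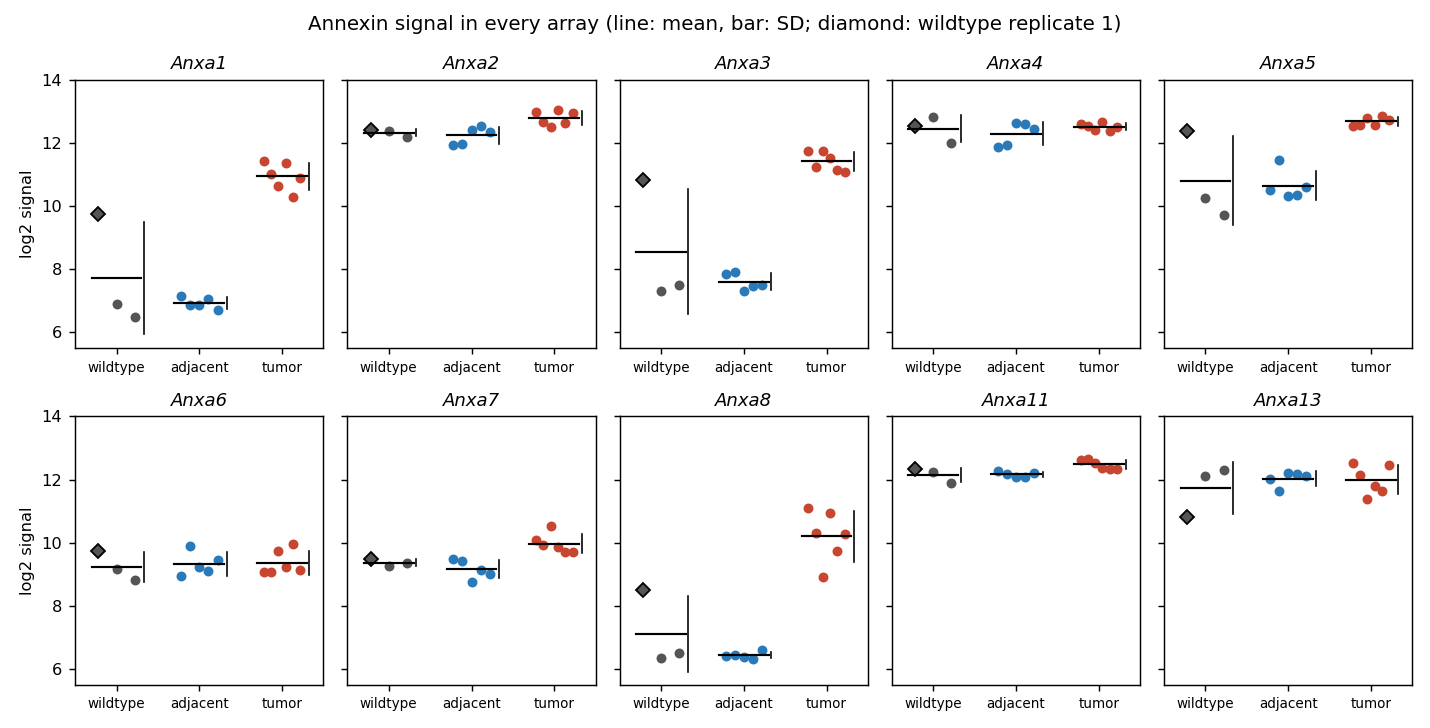
Log2 signal of the 10 annexins in every array, by group (wildtype n = 3, adjacent n = 5, tumor n = 6). Points are arrays, lines are means, vertical bars are 1 SD, and the diamond is wildtype replicate 1. For Anxa1, Anxa3, Anxa5 and Anxa8 all tumors lay above all adjacent arrays, and wildtype replicate 1 lay far above the other wildtype arrays.

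The first comparison set all 6 tumors against the 5 adjacent arrays, with the mouse as a block. Tumor replicate 1 had no adjacent array of its mouse. Of the 10 annexins, Anxa1, Anxa3 and Anxa8 were the most raised in tumors, by 13.1-fold to 15.8-fold. Anxa5 was raised 4.13-fold, and Anxa2, Anxa7 and Anxa11 by 1.23-fold to 1.74-fold. In limma 7 of the 10 rose and 0 fell (0 fell at an unadjusted p below 0.05 as well), while 19.1% of all genes rose and 12.6% fell. The median log2 fold change of the 10 was 0.671, against 0.043 over all genes. Tumor and adjacent arrays did not overlap for 6 of the 10, where 17.2% of all genes did not overlap. The same count of 7 was found after quantile normalization and after every array was shifted to one median. In bulk tissue, more cells of a type and more RNA per cell cannot be told apart.

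Anxa1, transcript cluster 10466606, restrains phospholipase A2 and signals through formyl peptide receptors in the resolution of inflammation. It was at 7.16, 6.87, 6.85, 7.07 and 6.70 in adjacent replicates 1 to 5 and at 10.30 to 11.42 in tumors (median 10.96, n = 6). Every tumor lay above every adjacent array by more than 3 log2 units, and the difference within a mouse ran from 3.23 to 4.52. The log2 fold change was 3.98 ± 0.36 (SE; limma adjusted p = 2.74e-06), which placed Anxa1 at rank 32 of 19938 genes ordered from the largest increase.

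Anxa3, transcript cluster 10523451, is a small annexin best known from neutrophil granules. It was at 7.84, 7.91, 7.30, 7.47 and 7.49 in adjacent tissue and at 11.08 to 11.75 in tumors (median 11.38). The 6 tumors lay within a range of 0.67, and each pair differed by 3.41 to 4.21. The log2 fold change was 3.79 ± 0.39 (SE; limma adjusted p = 5.99e-06), rank 38.

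Anxa8, transcript cluster 10414065, is an annexin of squamous and other lining epithelia that associates with late endosomes. Adjacent arrays read 6.42, 6.46, 6.39, 6.32 and 6.59, a range of 0.27. Tumors were far more uneven, from 8.90 through a median of 10.29 to 11.09, a range of 2.19. The log2 fold change was 3.71 ± 0.34 (SE; limma adjusted p = 2.73e-06), rank 41, and the smallest difference within a mouse was 2.44, in tumor replicate 3.

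Anxa5, transcript cluster 10497817, coats membranes that expose phosphatidylserine and is the protein used to stain dying cells. It was at 10.50, 11.45, 10.32, 10.35 and 10.59 in adjacent tissue and at 12.55 to 12.86 in tumors (median 12.65). Adjacent replicate 2 was the high array of its group, and its mouse showed the smallest difference, 1.34, against at least 2.07 in the other 4 mice. The log2 fold change was 2.04 ± 0.30 (SE; limma adjusted p = 0.000105), rank 176.

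Upstream sequence is shown for annexins that rose in tumors over adjacent tissue. RefSeq promoter windows on GRCm38.p6 matched 7 of the 10 genes, with none for Anxa3, Anxa6 and Anxa13. The 250 bases before the start site are printed 5′ to 3′ on the gene's strand, with capitals for matches on either strand to any of 5 motifs. Those were AP-1 (TGANTCA), TEAD (GGAATG), SP1 (GGGCGG), CRE (TGACGTCA) and the TATA box (TATAAA), chosen after the values were seen. The windows are those of the most raised genes with sequence, and of Anxa2, a smaller increase, for contrast.
Anxa1, chr19:20390672-20390921, minus strand: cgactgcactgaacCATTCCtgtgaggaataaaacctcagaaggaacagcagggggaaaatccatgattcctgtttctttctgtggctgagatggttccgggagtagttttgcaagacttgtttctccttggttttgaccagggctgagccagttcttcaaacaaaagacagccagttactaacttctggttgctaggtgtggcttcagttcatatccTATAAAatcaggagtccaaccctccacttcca
Anxa8, chr14:34085729-34085978, plus strand: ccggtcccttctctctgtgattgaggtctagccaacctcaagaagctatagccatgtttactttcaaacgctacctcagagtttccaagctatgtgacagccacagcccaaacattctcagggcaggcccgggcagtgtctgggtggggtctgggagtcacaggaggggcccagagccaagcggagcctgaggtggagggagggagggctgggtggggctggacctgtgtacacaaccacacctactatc
Anxa5, chr3:36475888-36476137, minus strand: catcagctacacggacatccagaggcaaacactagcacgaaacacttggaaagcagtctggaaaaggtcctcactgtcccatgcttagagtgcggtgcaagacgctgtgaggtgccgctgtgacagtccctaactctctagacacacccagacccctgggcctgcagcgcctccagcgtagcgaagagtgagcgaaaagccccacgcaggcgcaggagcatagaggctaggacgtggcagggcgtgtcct
Anxa2, chr9:69453433-69453682, plus strand: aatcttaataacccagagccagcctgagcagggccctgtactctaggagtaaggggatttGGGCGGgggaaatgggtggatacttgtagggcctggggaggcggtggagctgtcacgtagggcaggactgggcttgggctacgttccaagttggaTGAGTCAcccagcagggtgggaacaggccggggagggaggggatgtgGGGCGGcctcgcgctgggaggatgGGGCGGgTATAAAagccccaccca

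No motif of the 5 was shared by the windows of Anxa1, Anxa8 and Anxa5. Anxa1 held a TATA box whose first base lies at -32 from the start site, and a TEAD match at -236. The windows of Anxa8 and Anxa5 held none of the 5. The Anxa2 window held an AP-1 match at -95, a TATA box at -17 and SP1 matches at -190, -48 and -24, and was the richest of the 4 in G and C, at 62.4% against 46.0% for Anxa1. SP1 matches also stood in the windows of Anxa7 and Anxa11, whereas both windows of Anxa4 held none of the motifs. Over 32851 windows of this length, 6.75% held AP-1, 12.6% TEAD, 32.7% SP1, 1.55% CRE and 12.4% TATA. The AP-1, SP1 and TATA letters did not overlap in the Anxa2 window.

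Anxa7, Anxa2 and Anxa11 rose by less than 1 log2 unit. Anxa7, an annexin with a long proline-rich tail that takes part in vesicle fusion, was at 9.48, 9.43, 8.77, 9.15 and 9.02 in adjacent tissue and at 9.72 to 10.52 in tumors (median 9.89). The groups did not overlap, and the log2 fold change was 0.80 ± 0.12 (SE; limma adjusted p = 0.00018). Anxa2, which pairs with S100a10 and binds plasminogen and its activator at the cell surface, was at 11.92, 11.97, 12.42, 12.53 and 12.33 in adjacent tissue and at 12.50 to 13.04 in tumors (median 12.81). It was higher in 5 of 5 pairs, but the groups overlapped because adjacent replicate 4 lay above tumor replicate 3. Its log2 fold change was 0.55 ± 0.11 (SE; limma adjusted p = 0.00118). Anxa11, which tethers vesicles and RNA granules, was at 12.26, 12.19, 12.09, 12.07 and 12.22 in adjacent tissue and at 12.33 to 12.65 in tumors. The groups were separate by a narrow gap, with a log2 fold change of 0.30 ± 0.08 (SE; limma adjusted p = 0.00722). The mouse IDs begin with F or B, a letter the labels do not explain, and within each letter 6 of the 10 annexins rose, where 5.54% of all genes rose in F and 14.7% in B. The 6 in F include Anxa4 (0.61, limma adjusted p = 0.0241), and 5 of the 7 above kept their call there. Anxa11 did not pass within either letter (0.37 with limma adjusted p = 0.0754 in F, 0.23 with adjusted p = 0.121 in B), and Anxa7 did not within F (0.74, adjusted p = 0.0544).

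Anxa4, Anxa6 and Anxa13 did not pass. Anxa13, the intestinal annexin that takes part in apical transport, was at 12.03, 11.63, 12.20, 12.17 and 12.11 in adjacent tissue and at 11.38 to 12.53 in tumors. Its log2 fold change was -0.07 ± 0.22 (95% interval -0.53 to 0.40, limma adjusted p = 0.869). By contrast, 5 of 6 enterocyte markers fell in the same comparison, with a median of -3.28. Anxa6, a large annexin with a duplicated core, was at 8.96, 9.91, 9.22, 9.11 and 9.44 in adjacent tissue and 9.06 to 9.96 in tumors, a change of 0.06 ± 0.18 (95% interval -0.33 to 0.44, limma adjusted p = 0.874).

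Anxa4, an epithelial annexin that tempers calcium-driven chloride secretion, was at 11.86, 11.92, 12.62, 12.61 and 12.44 in adjacent tissue and at 12.39 to 12.67 in tumors. The low adjacent arrays were replicates 1 and 2, those with acinar transcripts, and both also belong to mice whose ID begins with F. The change was 0.22 ± 0.14 (95% interval -0.09 to 0.52, limma adjusted p = 0.291). Against those 2 arrays it was 0.61 ± 0.14 (limma adjusted p = 0.0177), and against the other 3 it was -0.04 ± 0.08 (limma adjusted p = 0.779). Anxa2 was likewise lowest in these 2 adjacent arrays, and rose by 0.80 ± 0.15 against them and by 0.39 ± 0.12 against the others (limma adjusted p = 0.00808 and 0.0272). Against the arrays with acinar transcripts Anxa7 (0.58, limma adjusted p = 0.0725) and Anxa11 (0.28, limma adjusted p = 0.243) did not pass. The part of pancreatic tissue in these values was not tested.

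**Figure D2:**
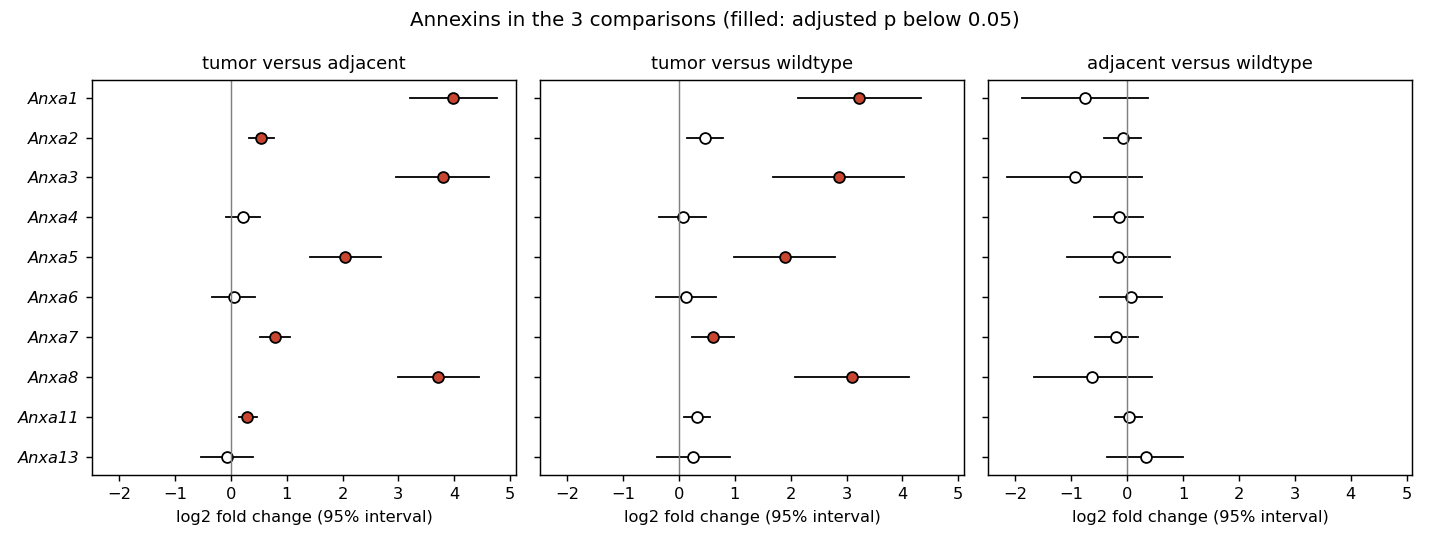
Log2 fold change of each annexin in the 3 comparisons, with its 95% interval. Filled points have an adjusted p below 0.05: 7 for tumors over adjacent tissue, 5 for tumors over wildtype, and 0 where adjacent tissue is set against wildtype.

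The second comparison asked how tumors differed from duodenum with intact Lrig1. Anxa1, Anxa3, Anxa8, Anxa5 and Anxa7 rose, which is 5 of 10, and 0 fell (0 also at an unadjusted p below 0.05), against 9.65% of all genes raised and 4.48% lowered. This comparison shares its tumors with the first, so the values are given side by side and are not independent. The log2 fold changes were 3.23 ± 0.51 for Anxa1 (SE; limma adjusted p = 0.00149), 3.09 ± 0.48 for Anxa8 (adjusted p = 0.00126) and 2.86 ± 0.55 for Anxa3 (adjusted p = 0.00397). Anxa5 rose by 1.89 ± 0.42 (adjusted p = 0.00927) and Anxa7 by 0.61 ± 0.17 (adjusted p = 0.0319). Anxa2 (0.47 ± 0.15, adjusted p = 0.0553) and Anxa11 (0.33 ± 0.11, adjusted p = 0.0586) did not pass, although every tumor lay above every wildtype array for both. In all, groups did not overlap for 7 of the 10, where 13.6% of all genes did not overlap. The median over the 10 was 0.536, against -0.002 over all genes.

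The wildtype arrays were far from alike. Wildtype replicate 1 read 9.74 for Anxa1, where replicates 2 and 3 read 6.89 and 6.50. Anxa3 was at 10.83 against 7.32 and 7.51, Anxa5 at 12.39 against 10.27 and 9.72, and Anxa8 at 8.49 against 6.35 and 6.50. Wildtype replicate 1 was thus the array nearest the tumors for each of the most raised annexins, and yet lay below the lowest tumor for all 4. Anxa13 went the other way, at 10.80 against 12.10 and 12.30, and Anxa6 was at 9.73 against 9.16 and 8.81. Of the 7 annexins raised in tumors over adjacent tissue, 5 (Anxa1, Anxa3, Anxa5, Anxa8 and Anxa11) had wildtype replicate 1 nearer the tumor mean than the mean of the other wildtype arrays, and 59.3% of all raised genes did so. The excluded family member Anxa10 was at 13.37 in this array, equal to the tumor mean.

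Without wildtype replicate 1 the tumors lay higher over wildtype for each of the 4: Anxa1 by 4.24 ± 0.26, Anxa3 by 4.0 ± 0.20, Anxa8 by 3.79 ± 0.42 and Anxa5 by 2.68 ± 0.25 (limma adjusted p from 6.67e-08 to 4.5e-05). Anxa7 (0.67, adjusted p = 0.0309) and Anxa11 (0.41, adjusted p = 0.0244) passed too, and 6 of 10 rose, where 15.6% of all genes rose. Leaving out wildtype replicate 2 or replicate 3 instead left 3 calls (Anxa1, Anxa3 and Anxa8), where 3.04% and 3.14% of all genes rose, with Anxa5 at 1.63 (adjusted p = 0.0712) and 1.35 (adjusted p = 0.0739), and Anxa7 at 0.55 (adjusted p = 0.153) and 0.60 (adjusted p = 0.117). In that single array the gastric surface list mean was 13.40 and the mast cell list mean 8.63 (5 of 5 in the table), against 5.62 and 5.36 in the other wildtype arrays for the latter. The part of these cells in the annexin values was not tested.

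The third comparison set adjacent null tissue against wildtype. Every adjacent array came from a mouse that also gave a tumor, so loss of Lrig1 and nearness to a tumor cannot be told apart. In limma 0 of 10 annexins passed, 0 did at an unadjusted p below 0.05, and 0% of all genes passed (559 at an unadjusted p below 0.05). Lrig1 itself, at -1.84 ± 0.25, was not called (limma adjusted p = 0.0511), so the comparison could miss large differences. The difference farthest from 0 was that of Anxa3, at -0.93 ± 0.56 (95% interval -2.14 to 0.27, limma adjusted p = 0.998), followed by Anxa1 at -0.75 ± 0.53 (95% interval -1.88 to 0.38). The groups overlapped for all 10, and 2.12% of all genes had groups that did not overlap. Without wildtype replicate 1 these differences turned to 0.20 ± 0.20 for Anxa3 and 0.26 ± 0.27 for Anxa1 (limma adjusted p = 0.717 and 0.723). The intervals are wide: for Anxa5 the interval ran from -1.08 to 0.77, whereas for Anxa11 it ran from -0.21 to 0.27.

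Among the tumors the annexins were not uniform, and tumor replicates 3 and 5 stood at one end for most of them. They were the lowest tumors for 5 annexins, Anxa1 (10.62 and 10.30), Anxa2 (12.50 and 12.62), Anxa4 (12.41 and 12.39), Anxa8 (8.90 and 9.73) and Anxa13 (11.38 and 11.63). They were the highest for Anxa5 (12.80 and 12.86) and Anxa6 (9.74 and 9.96). That is 7 of 10 annexins, and 18.0% of all genes had both arrays at one end; the arrays were picked after values were seen, so no test is given. Anxa3, Anxa7 and Anxa11 did not follow, and for Anxa3 and Anxa7 tumor replicate 3 was the highest tumor.

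The same 2 tumors differed in other markers. The gastric mucin Muc5ac was at 13.93 and 12.89 in them and at 7.27 to 9.40 in the other 4. Their gastric surface list means, 13.88 and 13.44, were the highest of the tumors, but that list includes Muc5ac. Its other genes lay closer together: Gkn1 was at 13.87 and 13.80 against 13.33 to 13.80, and Gkn2 at 14.35 and 14.16 against 14.01 to 14.15. Tff1 was at 14.23 and 14.08 against 13.75 to 14.03, and Vsig1 at 13.02 and 12.29 against 11.80 to 12.11. Their neutrophil list means were the lowest, 6.37 in both against 6.67 to 7.42 (6 of 6 genes in the table). So were their mast cell list means, 7.97 and 8.22 against 8.68 to 9.18. The smooth muscle list mean was 11.57 and 11.76 in them and 8.61 to 11.33 in the others. Wildtype replicate 1, which had Anxa6 at 9.73 and Anxa13 at 10.80, had smooth muscle at 11.75, Muc5ac at 12.88 and a neutrophil list mean of 6.85. Adjacent replicate 2 also had high Anxa6 (9.91) and the lowest Anxa13 of its group (11.63). Its Muc5ac was at 6.82, with smooth muscle at 10.84 and a neutrophil list mean of 6.34. The part of these cell types in the annexin levels was not tested.

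**Figure D3:**
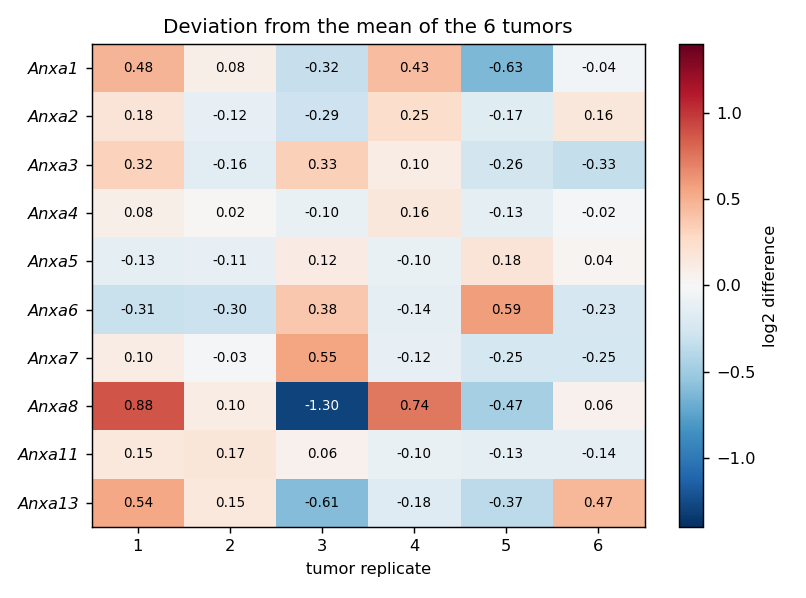
Deviation of each tumor array from the mean of the 6 tumors, in log2 units, for the 10 annexins. Tumor replicates 3 and 5 are at one end for 7 annexins, lowest for Anxa1, Anxa2, Anxa4, Anxa8 and Anxa13 and highest for Anxa5 and Anxa6; Anxa8 spans the widest range, from -1.30 to 0.88.

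Markers of several other cell types moved between tumor and adjacent tissue as well, where 19.1% of all genes rose and 12.6% fell. The gastric surface list rose in 5 of 5 genes (median 6.41), with list means of 6.22 to 7.81 in adjacent tissue and 12.08 to 13.88 in tumors. The mast cell list rose in 4 of 5 (median 1.77, list means of 5.45 to 7.02 against 7.97 to 9.18), with the proteases Mcpt1 at 22-fold and Mcpt2 at 57.6-fold (limma adjusted p = 0.000256 and 1.56e-05). T cell genes fell in 5 of 5 (median -2.28). Of the neutrophil list 4 of 6 genes rose, with list means of 6.22 to 6.72 in adjacent tissue and 6.37 to 7.42 in tumors. Of the squamous list 4 of 8 rose (8 of 8 in the table, 6.22 to 6.46 against 6.58 to 6.74). The keratins Krt13 (0.95), Krt4 (0.62) and Krt14 (0.58) and the desmoglein Dsg3 (0.56) were those that rose, with limma adjusted p from 8.48e-05 to 0.0334. The basal cell genes Krt5 (6.55 to 6.84 against 6.58 to 6.73) and Trp63 (6.70 to 6.89 against 6.60 to 6.98) did not pass. Macrophage genes fell in 4 of 6 (8.67 to 9.35 against 8.24 to 8.66), and fibroblast genes rose in 4 of 5 (8.37 to 8.90 against 9.04 to 9.83). Other lists moved little: 0 of 6 smooth muscle genes passed, and 1 of 4 endothelium genes rose. The part of all these cells in the annexin changes was not tested.

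The genes with the most similar profiles were found by the root-mean-square difference of gene-centred log2 values over the 14 arrays, with no claim of shared control. Anxa3 ranked second for Anxa1 at 0.346, after the sialyltransferase St8sia6 at 0.336 and before S100a6 at 0.382. Anxa3 itself was nearest Acsm3 (0.307), St8sia6 (0.334) and S100a6 (0.336). Anxa8 was nearest the interleukin-1 antagonist Il1rn (0.224), then Tnip3 (0.392) and the mast cell protease Mcpt4 (0.402). Anxa5 was nearest Ttc39a (0.264), Kcnk1 (0.315) and Pam (0.325). The spread of the members' own profiles around their means by the same measure was 1.997 for Anxa1, 1.91 for Anxa3, 1.879 for Anxa8 and 1.147 for Anxa5. The 14 points of each profile include the step between tumors and other arrays, and come from the same 9 mice.

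Partner genes of the annexins were read next, from a list of 19 by role, chosen with earlier results of these data known. Of these, 17 were in the table and the formyl peptide receptor genes Fpr1 and Fpr2 were not. In tumors against adjacent tissue 9 of 17 rose and 2 fell in limma, where 19.1% of all genes rose and 12.6% fell. Their median change was 0.504 on the log2 scale, against 0.043 over all genes. Against wildtype 8 rose and 1 fell (0 fell without wildtype replicate 2 or 3, and 2 without replicate 1), where 9.65% of all genes rose and 4.48% fell, and in adjacent tissue against wildtype 0 passed (0 at an unadjusted p below 0.05). The 8 that rose against wildtype became 9 without wildtype replicate 1, where 15.6% of all genes rose. Without wildtype replicate 2 or replicate 3 they became 2, where 3.04% and 3.14% of all genes rose.

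S100 partners moved apart from one another. S100a10, the light chain that joins Anxa2 into a heterotetramer, was at 12.95 to 13.25 in adjacent tissue and 12.88 to 13.47 in tumors, a change of 0.02 ± 0.10 (SE; limma adjusted p = 0.923), beside the 0.55 of Anxa2. S100a11, a partner of Anxa1, was at 12.77, 12.84, 12.42, 12.48 and 12.44 in adjacent tissue and at 13.76 to 13.90 in tumors, an increase of 1.24 ± 0.15 (limma adjusted p = 1.99e-05). S100a6, which binds Anxa11 and Anxa2, was at 8.53, 8.04, 8.58, 8.82 and 8.32 in adjacent tissue and at 11.94 to 12.55 in tumors. It rose by 3.89 ± 0.42 (limma adjusted p = 9.28e-06), and like Anxa1 and Anxa3 it was high in wildtype replicate 1, at 11.94 against 8.15 and 8.21.

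Of the plasminogen system, whose parts meet Anxa2 at the cell surface, 3 of 4 listed genes rose, where 19.1% of all genes rose. The urokinase receptor Plaur was at 7.43, 7.13, 7.32, 7.41 and 7.62 in adjacent tissue and 9.42 to 10.88 in tumors, an increase of 2.93 ± 0.33 (SE; limma adjusted p = 1.19e-05). The activators Plat (1.01 ± 0.15) and Plau (0.99 ± 0.15) rose too, with limma adjusted p of 0.000122 and 0.00014, and in all 5 mice. Wildtype replicate 1 lay within the tumor range for Plaur (10.01), Plat (8.16) and Plau (8.25). Plasminogen itself, Plg, was at 5.93 to 6.39 over all arrays, a change of -0.03 ± 0.08 (limma adjusted p = 0.818).

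In the Anxa1 axis the cytosolic phospholipase Pla2g4a, which Anxa1 restrains, was at 8.55, 8.21, 8.71, 8.52 and 8.65 in adjacent tissue and 9.95 to 10.60 in tumors. It rose by 1.77 ± 0.19 (SE; limma adjusted p = 7.2e-06), and the pair differences ran from 1.41 to 2.08. The channel kinase Trpm7, for which Anxa1 is a substrate, fell by 0.31 ± 0.11 (limma adjusted p = 0.0488), close to the threshold. The count of 2 lowered partners became 1 without the mouse block, after the shift to one median, and when adjacent replicate 1, 3, 4 or 5, tumor replicate 1, 2, 3, 4 or 6 or wildtype replicate 2 was left out.

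Other binding partners split. Pdcd6, a calcium sensor that binds Anxa7 and Anxa11, was at 10.77 or above in every adjacent array and at 9.94 to 10.71 in tumors. It fell in all 5 mice (-0.61 ± 0.10, limma adjusted p = 0.000203), beside increases in Anxa7 and Anxa11. Sorcin (Sri), which binds Anxa7, rose by 0.50 ± 0.09, Nedd4, a ubiquitin ligase that binds Anxa13, by 0.79 ± 0.12, and Cd63, whose surface display depends on Anxa8, by 0.74 ± 0.12 (limma adjusted p from 0.000189 to 0.000609). The membrane repair genes Ahnak (0.06) and Dysf (0.03), the Anxa6 partner Rasa1 (0.19) and S100a4 (0.22) did not pass, with adjusted p between 0.0983 and 0.876.

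**Figure D4:**
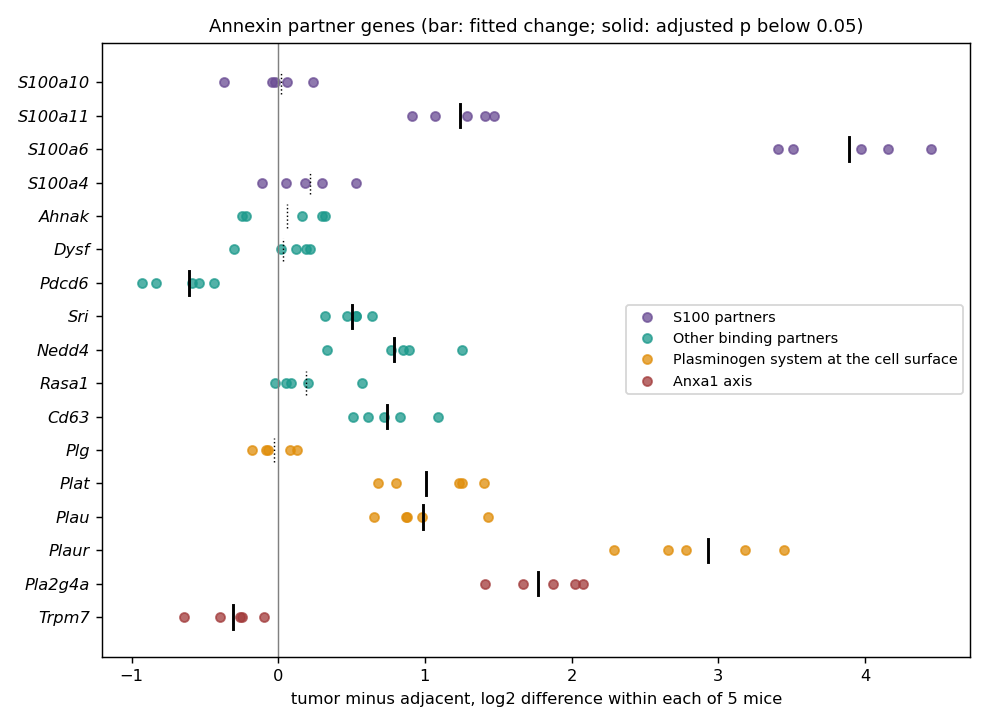
Differences between tumor and adjacent tissue within each of 5 mice (points, log2 units) for 17 partner genes, coloured by role, with the fitted change as a bar, solid where the adjusted p was below 0.05. S100a6, Plaur and Pla2g4a lay above 1 in every mouse, S100a10 lay near 0, and Pdcd6 was below 0 in every mouse.

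Of the annexins outside the set, Anxa9 was at 6.31 to 6.62 in adjacent tissue and 6.38 to 7.13 in tumors (0.23 ± 0.11, limma adjusted p = 0.131). Anxa10 rose by 6.57 ± 0.91 (limma adjusted p = 6.71e-05), a larger change than that of any annexin in the set.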

How the data were processed

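Total RNA was hybridised to Affymetrix arrays with a biotin label. The deposited table holds log2 signal of 35556 transcript clusters on 14 arrays, from 2.87 to 14.78. The log2 unit was read from the deposited values, whose array medians were 7.11 to 7.29. Per the submitters' processing notes, the authors used Affymetrix Expression Console 1.1 with mm9. For background correction and normalization, the method is not given in the sources used here. No detection call or coordinates were used, and the number of arrays limits the precision.

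A single symbol was given to 21789 clusters, and symbols were updated by gene identifier for 21698. The brightest cluster per gene left 19938 genes. Group means of all arrays were fitted in limma 3.58.1 (R 4.3.3) with mouse as a random block (correlation 0.334), since the labels name the mouse that tumor and adjacent tissue share. Deviations from group means correlated at a mean r of 0.225 within mice and -0.0439 between mice (5 pairs, 4 above 0.1, over genes). Tests are two-sided, called at 0.05 after Benjamini-Hochberg adjustment over the 19938 genes, and the script was tested on simulated data. The alternatives were no block or a fixed block, quantile or median scaling, array weights, another prior, dim genes left out, all clusters averaged, stricter calls, and subsets of arrays. Promoter windows are from RefSeq GRCm38.p6.

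Named genes are the 10 annexins, Lrig1, Anxa9, Anxa10, the partner genes and the 3 nearest profiles per annexin. Members, lists and tests were chosen with earlier results of these data known. Marker list means average log2 values over the genes in the table.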

Additional observations from a re-analysis of the deposited data

Results flagged for a closer look

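In adjacent tissue, Anxa5 of replicate 2 was at 11.45, above the other 4 adjacent arrays at 10.32 to 10.59, a gap of 0.758 of the group's range. In tumors, S100a6 of replicate 2 was at 11.94, below the other 5 at 12.33 to 12.55, a gap of 0.639 of the range. Anxa9 in adjacent replicate 2 was at 6.31, below the other 4 at 6.53 to 6.62 (0.732 of the range). In all, 60 groups of values were looked at for a sample far from the others (30 genes in adjacent tissue and in tumors) and 3 had one; chance alone gives about 1 in 20.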

How the results depend on the processing

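The count of 7 annexins raised in tumors over adjacent tissue was 6 or 7 under every alternative run but 1: requiring a change of at least 1 on the log2 scale left 4. Within letter F and against the acinar-bearing arrays alone the 6 were not all from the 7: Anxa7 and Anxa11 lost their call, Anxa4 (0.61 in both) gained one, and 5 of the 7 kept theirs. The pairing of arrays by mouse comes from the labels, and the count was 7 with no replicate block and 7 with the mouse as a fixed replicate block; the block changed no annexin call. The 5 raised over wildtype became 2 against the acinar-bearing arrays alone, where 1.26% of all genes rose. When single arrays were left out they became 3 to 6, where 3.04% to 15.6% of all genes rose. ID letter F holds a single wildtype array, replicate 1, so no count is given there. Letter F log2 changes over wildtype were 1.28 for Anxa1, 0.74 for Anxa3, 1.61 for Anxa8, 0.25 for Anxa5 and 0.69 for Anxa7. Over all genes, tumors against wildtype had 1924 raised and 893 lowered; array weights gave 4163 and 2867, and leaving out wildtype replicate 1, 2 or 3 gave 3102, 606 or 627 raised. In adjacent tissue against wildtype, 0 annexins and 0 partner genes passed under the alternatives outside letter F. Within letter F the only wildtype array is replicate 1, with Anxa1 at 9.74 and Anxa3 at 10.83. The log2 changes there were -2.68 for Anxa1 and -2.94 for Anxa3, and no count is given.

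Partner genes lowered in tumors over adjacent tissue went from 2 to 1 (one median, letter B, no replicate block, trend and robust prior). There 9.82% to 13.8% of all genes fell. The 2 became 0 in letter F and against the acinar-bearing arrays alone, where 3.08% and 4.97% of all genes fell. With single arrays left out they were 1 to 2, where 10.4% to 14.1% of all genes fell. Those lowered over wildtype went from 1 to 2 with array weights, where 14.4% of all genes fell. They went to 0 against the acinar-bearing arrays alone, where 1.27% of all genes fell. With single arrays left out they were 0 to 2, where 1.68% to 7.14% of all genes fell. Those raised over wildtype went from 8 to 0 against the acinar-bearing arrays alone, where 1.26% of all genes rose. With single arrays left out they were 2 to 9, where 3.04% to 15.6% of all genes rose.

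No annexin that passed reversed. Signs turned for differences that had not passed, given as log2 changes. In adjacent tissue against wildtype, letter B gave 0.18 for Anxa1, 0.15 for Anxa2, 0.15 for Anxa4, 0.43 for Anxa5, 0.01 for Anxa8 and -0.04 for Anxa13. Letter F gave -0.32 for Anxa6 and -0.09 for Anxa11, and array weights gave 0.14 for Anxa5 and -0.04 for Anxa11. Without acinar-bearing arrays Anxa1 was at 0.01, Anxa2 at 0.03, Anxa3 at 0.16, Anxa5 at 0.13, Anxa8 at 0.05 and Anxa11 at -0.07. With single arrays left out Anxa1 ran from -1.36 to 0.26, Anxa3 from -1.55 to 0.20, Anxa4 from -0.38 to 0.04, Anxa5 from -0.69 to 0.64, Anxa6 from -0.13 to 0.33, Anxa8 from -1.0 to 0.07, Anxa11 from -0.10 to 0.11 and Anxa13 from -0.14 to 0.61.

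In tumors against adjacent tissue Anxa4 was at -0.04 in letter B and -0.04 without acinar-bearing arrays. Anxa6 was at -0.13 in letter F, -0.07 against acinar-bearing arrays and -0.09 to 0.17 with single arrays left out, and Anxa13 at 0.14, 0.11 and -0.15 to 0.02. Against wildtype Anxa4 was at -0.11 with array weights, -0.02 in letter F, -0.32 without acinar-bearing arrays and -0.17 to 0.26 with single arrays left out. Anxa6 was at -0.45 in letter F and -0.08 to 0.38, and Anxa13 at -0.02 with array weights, -0.23 in letter B, -0.10 without acinar-bearing arrays and -0.21 to 0.54. The cause of these changes was not tested. Signal over background could not be judged, since no detection values were used.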
